A study of Macaca mulatta with 24 samples.

Results

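The genes described here are 9 ion channel and transporter genes of airway epithelium. They were taken by gene symbol from a table of 35432 genes, and each of the 9 symbols named 1 row. They are the 3 subunit genes of the epithelial sodium channel (SCNN1A, SCNN1B and SCNN1G), the chloride and bicarbonate channels and exchanger CFTR, ANO1 and SLC26A4, the cotransporter gene SLC12A2, the sodium pump subunit gene ATP1B1 and the proton pump gene ATP12A. Their expression was followed in cultured airway cells of rhesus macaques after wood smoke and after filtered air.

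Airway epithelium sets the depth and acidity of its surface liquid by moving salt, and water follows. The epithelial sodium channel, ENaC, is built from an alpha, a beta and a gamma subunit (SCNN1A, SCNN1B, SCNN1G) in the apical membrane, absorbs sodium, and is activated when proteases cut its alpha and gamma subunits. CFTR, the cyclic AMP regulated anion channel mutated in cystic fibrosis, and ANO1, a calcium activated chloride channel, secrete chloride and bicarbonate. SLC26A4 (pendrin) exchanges chloride for bicarbonate. On the basolateral side SLC12A2 (NKCC1) loads the cell with chloride, and the sodium pump, of which ATP1B1 is the beta-1 subunit, maintains the sodium gradient. ATP12A, a non-gastric proton-potassium pump, acidifies the surface liquid.

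Epithelial cells from the trachea and bronchi of 4 adult female macaques, S1 to S4, were grown on porous supports and differentiated with the apical side in air, in medium with retinoic acid. Cultures received diluted whole wood smoke or filtered air for 6 hours a day. The 6 groups were smoke and air after 1 day, smoke and air after 5 consecutive days, and smoke and air 7 days after the end of such a 5-day course, called recovery. Each animal gave 1 library to each group, which makes 24 libraries. The animals were 5463 (S1), 2930 (S2), 2238 (S3) and 1128 (S4) days old, and the age of a donor cannot be told apart from the donor itself. The cultures hold epithelium of one sex without a blood supply, and no agent other than smoke distinguished the groups.

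Normalized totals ranged from 11.8 M to 15.2 M per library (M, 10 to the power of 6), and approximate depths, read from the steps between low values, from 9.5 M to 17.4 M reads. Of the cell type markers, FOXJ1 of ciliated cells ranged from 1217 to 10285 normalized counts and KRT5 of basal cells from 12227 to 57575, whereas SCGB1A1 of club cells lay between 3.43 and 47.8. LUM of fibroblasts, CDH5 of endothelium and MS4A1 of B cells were at 0 in every library, and PTPRC of leukocytes reached at most 1.69. Other genes of those marker lists were present, among them KDR (1310 to 20429), PECAM1 (11.8 to 180) and VWF (50.9 to 121) of the endothelial list, PDGFRA (340 to 685) of the fibroblast list, and LYZ (1471 to 4679) and CD68 (194 to 932) of the immune list. FOXI1, ASCL3 and BSND, which define ionocytes, were below 10 in every library and belong to the 6 of 11 ionocyte markers that were. The 5-day S1 air library stood apart. Its median correlation with the other libraries was 0.860, against 0.931 to 0.956 for the other 23, and 336 of the 10164 genes with at least 50 normalized counts in each other library of the animal lay there more than 5-fold below the lowest of them. CFTR and SLC12A2 were among the genes with very low values in that library, and the results that this library moves most are also given without it.

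The clearest difference between smoke and air was in SCNN1G after recovery. SCNN1G was lower in smoke than in air in all 4 animals, 2.61-fold on average, while the log2 differences of SCNN1A and SCNN1B were -0.21 and -0.23, neither of them called. None of the 9 genes was called between smoke and air at 1 day, 5 days or recovery when animals were not treated as pairs (limma, Benjamini-Hochberg adjusted p under 0.05 over 14062 genes). Of all genes tested, 0.0284% at 1 day, 0.0711% at 5 days and 0.242% at recovery were called in that fit. With animal as a block, which compares smoke with air within each animal, SCNN1G was called lower at recovery and no member was called at 1 day or 5 days. The shares of all genes called with the block were 0.0782% at 1 day, 1.69% at 5 days and 3.41% at recovery. When the 5-day S1 air library was also left out, SCNN1G (lower) and SLC12A2 (higher) were called at recovery and none at 1 day or 5 days, against 18.8%, 0.963% and 6.33% of all genes. The same fits gave a median log2 difference over all genes between 0.004 and 0.013 in 24 libraries. At an unadjusted p under 0.05, the unblocked fit held 265 genes at 1 day (1.88%), 1306 at 5 days (9.29%) and 1197 at recovery (8.51%). The 1-day share lay below the share that this threshold gives by chance.

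**Figure D1:**
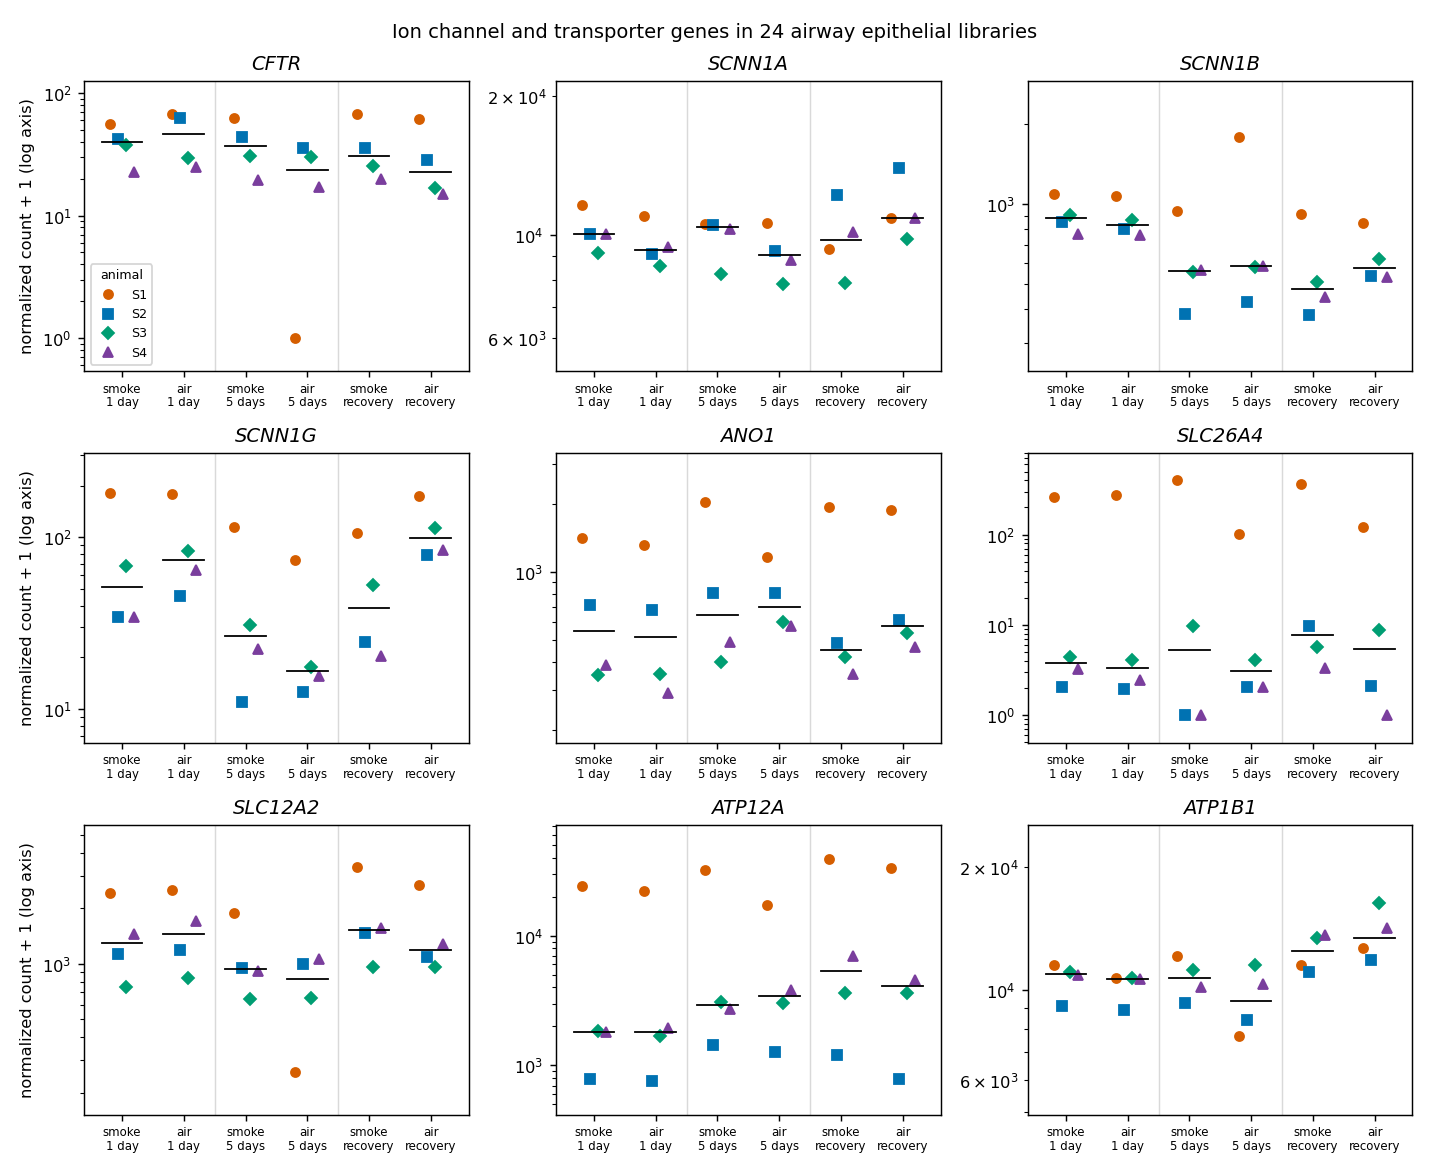
Normalized count plus 1 on a log axis for each of the 9 genes in each of 24 libraries. The groups are on the x axis, the 4 animals are symbols, and the line is the group's median. SCNN1G in air cultures has its lowest values at 5 days, the 5-day S1 air library lies at 0 for CFTR (drawn at 1), and S1 lies far above the other animals for SLC26A4 and ATP12A.

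Among the ENaC genes, SCNN1G (ENSMMUG00000005699) encodes the gamma subunit. After recovery it had 105, 23.6, 51.9 and 19.5 normalized counts in smoke cultures of S1 to S4, against 172, 77.7, 113 and 83.6 in air cultures. Every animal was lower in smoke, although the high smoke value of S1 overlapped the air group. The means were 49.9 ± 39.3 in smoke and 112 ± 43.3 in air (SD, n = 4 each). The log2 differences by animal were -0.71, -1.68, -1.10 and -2.04, with a mean of -1.38. The SE was 0.71 and the adjusted p 0.63 without a block. With animal as a block the SE was 0.26, the 95% interval -1.93 to -0.83 and the adjusted p 0.00712. This p was 0.00091 without the 5-day S1 air library. In the blocked fit that keeps this library, leaving out S2, S3 or S4 ended the call (adjusted p up to 0.188), while leaving out S1 kept it (0.000448). Without this library the call stood when any 1 of the 8 recovery libraries or any 1 animal was left out (adjusted p at most 0.0327). These last omissions were added after the data were seen. The fit they start from called 18.8% of all genes at recovery.

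At the earlier times no smoke difference in SCNN1G passed the test. After 1 day it had 179, 33.2, 66.9 and 33.5 normalized counts in smoke, against 178, 44.4, 82.8 and 63.2 in air (log2 difference -0.40, blocked 95% interval -0.95 to 0.15, adjusted p 1). After 5 days it had 114, 9.97, 29.7 and 21.3 in smoke, against 72.5, 11.6, 16.5 and 14.6 in air (0.44, blocked interval -0.11 to 0.99, adjusted p 0.37). Values in smoke were thus lower in 3 of 4 animals at 1 day, higher in 3 of 4 at 5 days and lower in 4 of 4 at recovery. The change of the smoke effect, recovery against 5 days, was -1.83, with an adjusted p of 0.503 without a block and 0.011 with it (SE 0.37). The blocked call stood in 1 of 4 omissions of an animal (adjusted p up to 0.19). Members called for this change were 0 without a block and 1 with it, against 0.348% and 3.56% of all genes, and for the change from 1 day to 5 days they were 0 in both fits, against 0.0142% and 0.0427%. Without the 5-day S1 air library the change was -1.95 (adjusted p 0.00244, with 11.3% of all genes called), and leaving out S4 as well ended the call (adjusted p 0.0579).

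Over time, SCNN1G in air was lower at 5 days than at 1 day in all 4 animals (-1.86, adjusted p 0.114 without and 0.00024 with the block) and higher at recovery than at 5 days in all 4 (2.25, SE 0.71, adjusted p 0.0431 without and 1.54e-05 with the block), a 4.77-fold rise. Without the 5-day S1 air library the blocked values were -1.99 and 2.38 (adjusted p 7.69e-05 and 3.1e-06). The recovery and 5-day air values did not overlap. Without a block this call was lost when any air library of the contrast other than the 5-day one of S1 was left out (adjusted p up to 0.112). It was also lost with no filter on low values. From the libraries of this contrast alone SCNN1G was not called with or without the block. Of all genes, 11.3% were called for this interval without and 28.4% with the block. In smoke, SCNN1G was also lower at 5 days than at 1 day in all 4 animals (-1.02, adjusted p 0.817 without and 0.0393 with the block). Recovery against 5 days in smoke was 0.43 (adjusted p 0.88 without and 0.355 with the block), higher in S2 and S3 and lower in S1 and S4. In the blocked fit the smoke call for 5 days against 1 day was lost when S2, S3 or S4 was left out (adjusted p 0.148 to 0.305).

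Basal cell markers were lower in smoke at recovery as SCNN1G was. Over the 7 of 8 listed basal markers that the table holds, the sums at recovery were 41501, 31419, 29569 and 21875 in smoke cultures of S1 to S4, against 67185, 69033, 57583 and 65738 in air cultures, with no overlap. At 5 days they ranged from 33215 to 45461 in smoke and from 34066 to 55312 in air, and at 1 day from 56574 to 70818 in smoke and from 55747 to 72026 in air. At 5 days S1 and S3 had lower basal sums in smoke than in air (40126 against 55312, and 33215 against 43499), and SCNN1G was higher in smoke in both. The S1 air values come from the 5-day S1 air library, which stood apart. In S4 the basal sum (38794 against 34066) and SCNN1G were both higher in smoke. In S2 the basal sums were nearly equal (45461 against 45359) and SCNN1G was lower in smoke. The sums of 5 of 7 squamous markers at recovery were 21262 to 29397 in smoke and 27462 to 41340 in air. They were lower in smoke in 4 of 4 animals at recovery. The squamous sums were also lower in smoke in 4 of 4 at 5 days (21946 to 28652 against 26956 to 61182 in air). The 61182 was the 5-day S1 air library. At 1 day they were higher in smoke in 4 of 4. KRT13 made up most of the recovery sums, with medians of 22473 in smoke and 33368 in air. By recovery median KRT4 and IVL were also lower in smoke, SPRR3 was not (32.1 against 31.0), and KRT78 was below 10 in every library. The sums of 6 ciliated cell markers were higher in smoke in 4 of 4 at recovery, although DNAH5 and DNAI1 were not higher by median. At 1 day and at 5 days these sums were higher in smoke in 3 of 4. The part of these markers in the SCNN1G result was not tested, and in bulk cultures fewer cells of a type and less RNA per cell cannot be told apart.

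**Figure D2:**
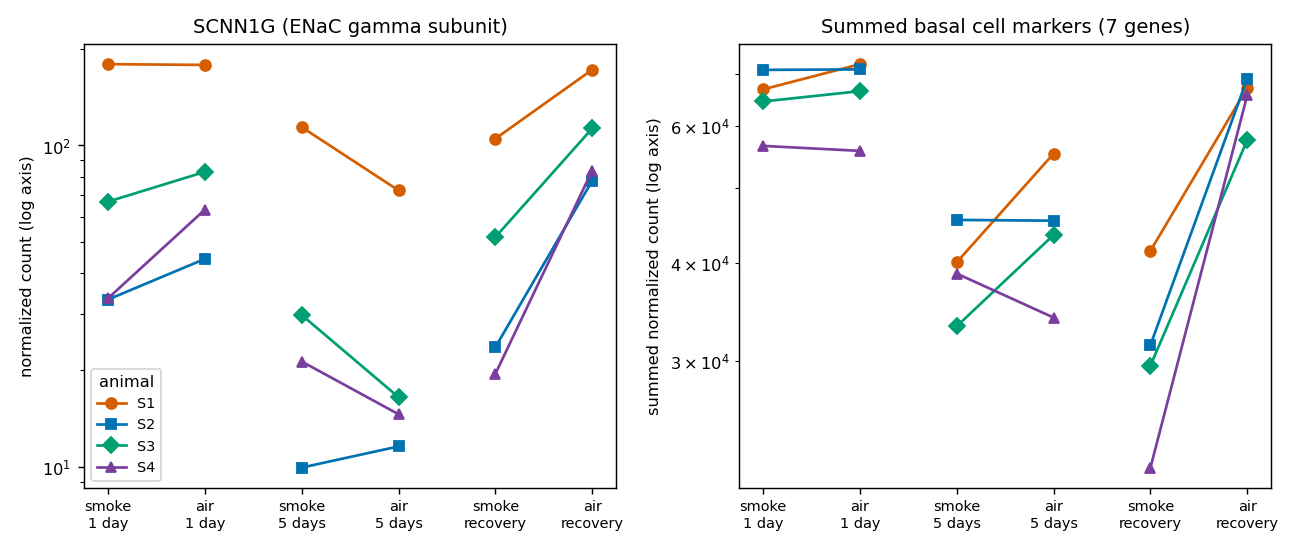
SCNN1G (left) and the summed level of 7 basal cell markers (right) as normalized counts on log axes, with a line joining the smoke and the air culture of each animal at each time. At recovery all 4 lines rise toward air in both panels, and every 5-day value is below the 1-day value of the same animal and exposure.

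SCNN1A (ENSMMUG00000020212), the alpha subunit, was not called between smoke and air in 24 libraries, with or without the block. With the block in the libraries of one contrast alone, it was called higher in smoke at 1 day and lower at recovery (adjusted p 0.037 and 0.0265). No share of all genes was computed for these fits, so these calls are no result about SCNN1A. After recovery SCNN1A had 9325, 12235, 7865 and 10186 normalized counts in smoke, against 10911, 13971, 9813 and 10880 in air, which is lower in 4 of 4 animals within ranges that overlap. The log2 difference was -0.21, with an adjusted p of 0.801 without a block, 0.272 with it and 0.0901 with it and without the 5-day S1 air library. After 1 day it had 11646, 10055, 9168 and 10054 in smoke, against 11015, 9124, 8587 and 9452 in air, a difference of 0.10 that was positive in 4 of 4 animals (adjusted p 1). After 5 days it had 10592, 10526, 8251 and 10294 in smoke, against 10611, 9267, 7851 and 8837 in air, a difference of 0.12 with S1 nearly equal in both (adjusted p 0.812). Values in smoke were thus higher in 4 of 4 animals at 1 day and in 3 of 4 at 5 days, and lower in 4 of 4 at recovery. In air, SCNN1A at recovery against 5 days was 0.31, with an adjusted p of 0.142 without and 0.0231 with the block (0.36 and 0.0063 in the blocked fit without the 5-day S1 air library).

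SCNN1B (ENSMMUG00000000524), the beta subunit, had 911, 379, 505 and 445 normalized counts at recovery in smoke, against 848, 532, 616 and 527 in air. It was lower in S2 to S4 and higher in S1 (-0.23, adjusted p 0.956 without and 0.589 with the block). After 1 day it had 1086, 855, 907 and 769 in smoke, against 1072, 799, 868 and 763 in air, and after 5 days 935, 384, 553 and 560 in smoke, against 1787, 425, 578 and 581 in air. The 5-day S1 air value of 1787 was the highest of the 24, and every other 5-day value lay below the 1-day value of the same animal and exposure. At 5 days against 1 day SCNN1B was lower in all 4 animals in smoke (-0.63, adjusted p 0.69 without and 0.0737 with the block), and in 3 of 4 in air (-0.29). The 5-day difference between smoke and air was -0.30, and -0.02 in the blocked fit without the 5-day S1 air library (adjusted p 0.943). Without it and with the block, both intervals were called lower, at -0.63 in smoke (adjusted p 0.001) and -0.56 in air (adjusted p 0.00476, and 0.0664 when S3 was left out as well).

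Of the anion channels, CFTR (ENSMMUG00000011269) had low values in these cultures. It had 54.6, 40.7, 36.8 and 21.7 normalized counts after 1 day in smoke, against 66.5, 61.4, 28.3 and 24.0 in air. After 5 days it had 61.3, 42.5, 29.4 and 18.5 in smoke, against a listed 0 in the air library of S1 and 34.6, 28.9 and 16.0 in S2 to S4. After recovery it had 65.8, 34.5, 24.5 and 18.8 in smoke, against 60.2, 27.2, 15.7 and 13.9 in air. Animals kept the order S1, S2, S3, S4 from high to low in 5 of the 6 groups. The exception was 5-day air, by that 0. The 5-day difference of 1.62 (SE 0.79, adjusted p 0.548 without a block) rests on the listed 0 and became 0.15 with the block and without that library (95% interval -0.30 to 0.60, adjusted p 0.754). At recovery CFTR was higher in smoke in 4 of 4 animals, by 0.37, with an adjusted p of 0.978 without a block and 0.199 with it and without that library (95% interval -0.04 to 0.78).

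ANO1 (ENSMMUG00000019734) had 1938, 485, 418 and 353 normalized counts at recovery in smoke, against 1868, 613, 536 and 465 in air. It was lower in S2 to S4 and slightly higher in S1, with a log2 difference of -0.26 (adjusted p 0.981 without a block, 0.541 with it). This difference was called with the block in the recovery libraries alone, a fit for which no share of all genes was computed. After 1 day it had 1413, 711, 349 and 387 in smoke, against 1313, 675, 353 and 289 in air (0.14). After 5 days it had 2030, 803, 397 and 487 in smoke, against 1165, 801, 600 and 577 in air (-0.01, and -0.26 in the blocked fit without the 5-day S1 air library, adjusted p 0.332). The 5-day animals were split, with S1 higher in smoke, S2 nearly equal, and S3 and S4 lower. In air, ANO1 at 5 days against 1 day was 0.46 (adjusted p 0.683 without and 0.0967 with the block), and 0.71 with the block and without the 5-day S1 air library (adjusted p 0.0026, and 0.0777 when S4 was left out as well).

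SLC26A4 (ENSMMUG00000019125) was measured mainly in S1. Its 6 libraries of S1 held 101 to 397 normalized counts, and the 18 libraries of S2 to S4 held 0 to 8.84. It therefore passed the filter on low values through S1 alone, and the other 8 genes did not depend on 1 animal to pass. In S1 it had 262 in smoke against 274 in air at 1 day, 397 against 101 at 5 days, and 359 against 120 at recovery. The fitted smoke effect at recovery, 1.23, was not called (adjusted p 0.969 without and 0.237 with the block). It averages S1 with values near 0, such as 8.84 in smoke against 1.11 in air in S2 and 2.30 against 0 in S4, and is no support for a difference.

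SLC12A2 (ENSMMUG00000011214), the basolateral chloride loader, had 3333, 1462, 965 and 1568 normalized counts at recovery in smoke, against 2665, 1083, 962 and 1283 in air. It was higher in smoke in 4 of 4 animals, with S3 nearly equal, and the groups overlapped. The log2 difference of 0.26 had an adjusted p of 0.971 without a block and 0.793 with it. It was called only with the block and without the 5-day S1 air library, or with the block in the 8 recovery libraries alone (adjusted p 0.0395 and 0.0242). The first of these calls held in 1 of 8 omissions of a further library (adjusted p up to 0.152) and in 1 of 4 omissions of an animal. For the fit of the recovery libraries alone no share of all genes was computed. After 1 day the values were 2413, 1132, 750 and 1444 in smoke, against 2507, 1190, 841 and 1702 in air, which is lower in all 4 animals (-0.13, adjusted p 1). After 5 days they were 1882, 952, 642 and 909 in smoke, against 258, 994, 648 and 1060 in air. The 5-day S1 air library thus held 258, against 1882 to 3333 in the other libraries of S1, and the 5-day difference of 0.64 with it became -0.10 in the blocked fit without it.

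Over time SLC12A2 was lower at 5 days and higher at recovery in both exposures. With the block and without the 5-day S1 air library, 5 days against 1 day was -0.37 in smoke (adjusted p 0.00513) and -0.40 in air (adjusted p 0.0055). Recovery against 5 days was 0.70 in smoke, higher in 4 of 4 animals (adjusted p 1.44e-05), and 0.34 in air (adjusted p 0.0117). The last of these was lost when the 5-day air library of S4, the recovery air library of S3 or all of S3 was left out as well (adjusted p up to 0.0591 for the libraries and 0.141 for S3). In all 24 libraries the blocked fit called only the air changes, at -1.15 and 1.08 (adjusted p 0.0475 and 0.0464), and the unblocked fit none (adjusted p 0.141 to 0.956).

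ATP1B1 (ENSMMUG00000021078), the pump's beta-1 subunit, had 11519, 11076, 13395 and 13649 normalized counts at recovery in smoke, against 12667, 11803, 16363 and 14205 in air. All 4 animals were lower in smoke, by 0.14 on the log2 scale, within overlapping ranges (adjusted p 0.9 without and 0.477 with the block). After 1 day it had 11520, 9126, 11022 and 10881 in smoke, against 10677, 8901, 10660 and 10601 in air, and after 5 days 12096, 9289, 11188 and 10140 in smoke, against 7665, 8407, 11476 and 10342 in air. The differences were 0.06 and 0.18, neither of them called (adjusted p 1 and 0.685). The 5-day value was 0.08 in the blocked fit without the 5-day S1 air library (adjusted p 0.607). In air ATP1B1 was higher at recovery than at 5 days by 0.55 (SE 0.14, adjusted p 0.0149 without and 0.000609 with the block), in 4 of 4 animals and with no overlap between the groups. The unblocked call was lost when the recovery air library of S3 was left out (adjusted p 0.0546). From the libraries of this contrast alone ATP1B1 was not called with or without the block. Of all genes, 11.3% were called for this interval without and 28.4% with the block. The blocked value without the 5-day S1 air library was 0.44 (adjusted p 0.00023). In smoke the same interval gave 0.22, higher in 3 of 4 animals (adjusted p 0.599 without and 0.177 with the block). It was called with the block and without the 5-day S1 air library (adjusted p 0.0231).

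ATP12A (ENSMMUG00000022608) had 39343, 1197, 3601 and 6999 normalized counts at recovery in smoke, against 33282, 790, 3598 and 4544 in air. All 4 animals were higher in smoke, S3 barely, and the log2 difference was 0.37 (adjusted p 0.991 without and 0.476 with the block, interval -0.14 to 0.88). With the block in the recovery libraries alone it was called, a fit for which no share of all genes was computed. After 1 day it had 24280, 782, 1831 and 1814 in smoke, against 22000, 762, 1680 and 1959 in air (0.05). After 5 days it had 31868, 1425, 3096 and 2707 in smoke, against 17220, 1271, 3053 and 3782 in air (0.15, and -0.12 in the blocked fit without the 5-day S1 air library, adjusted p 0.801). At both times S1 to S3 were higher and S4 lower in smoke. In smoke cultures ATP12A was higher at 5 days than at 1 day in 4 of 4 animals by 0.65 (adjusted p 0.985 without and 0.168 with the block), and this was called with the block and without the 5-day S1 air library (adjusted p 0.022). That call was lost in 4 of 8 omissions of a further library (adjusted p up to 0.097) and when S3 was left out (0.146). The air cultures gave 0.55 over the same interval and 0.82 without that library (adjusted p 0.00944 with the block). Leaving out the S2 library of 5-day air as well gave an adjusted p of 0.0538, and leaving out S3 0.0808.

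**Figure D3:**
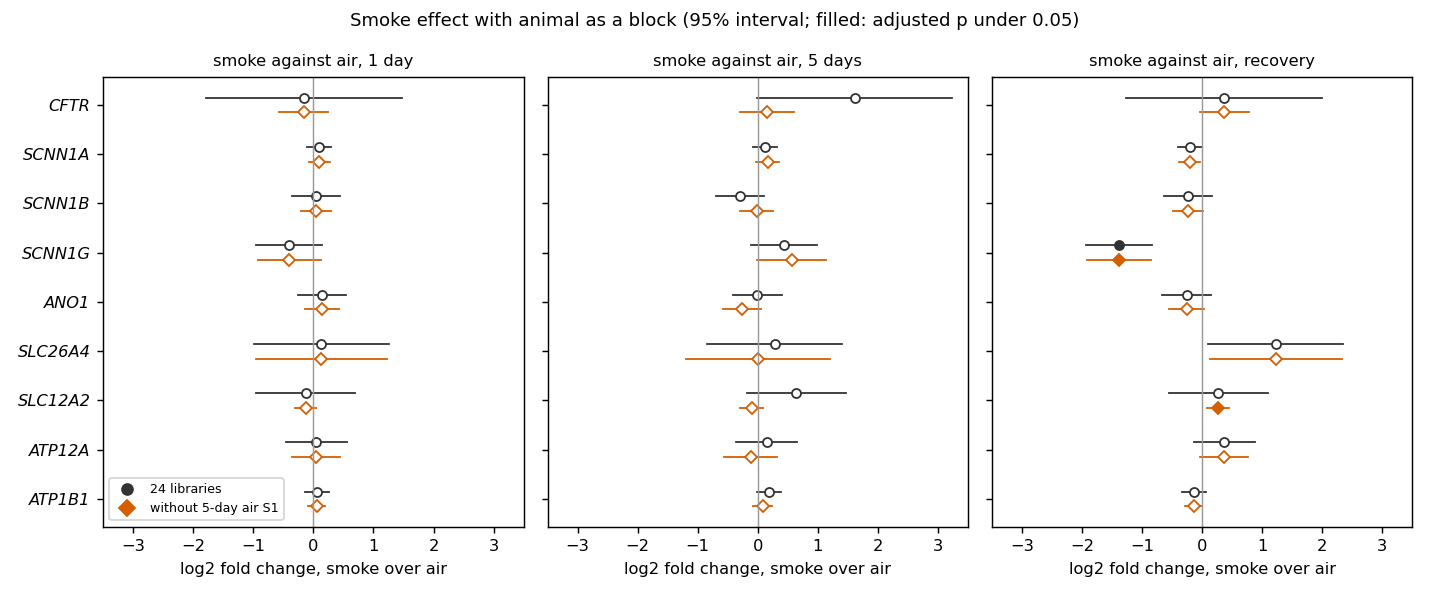
Log2 fold change of smoke over air with its 95% interval at 1 day, 5 days and recovery, fitted with animal as a block in 24 libraries (circles) and without the 5-day S1 air library (diamonds). Filled symbols have an adjusted p under 0.05. They are SCNN1G at recovery in both fits and SLC12A2 at recovery in the fit without that library, and the wide intervals of CFTR and SLC12A2 in 24 libraries narrow when it is left out.

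Counted over the intervals within one exposure, 2 of 9 members, SCNN1G and ATP1B1, were called without a block, both higher in air at recovery than at 5 days, where 11.3% of all genes were called. Without a block none was called in air at 5 days against 1 day (background 3.98%), in smoke at 5 days against 1 day (0.284%) or in smoke at recovery against 5 days (0.512%). With the block the counts were 4 of 9 in air at recovery against 5 days (28.4% of all genes), 2 of 9 in air at 5 days against 1 day (19.4%), 1 of 9 in smoke at 5 days against 1 day (3.48%) and 0 of 9 in smoke at recovery against 5 days (8.06%). With the block and without the 5-day S1 air library they were 4 (27.1%), 5 (18.7%), 4 (18.9%) and 2 (27.4%).

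The animals differed more than the exposures for several members. ATP12A ranged from 17220 to 39343 normalized counts in S1, 762 to 1425 in S2, 1680 to 3601 in S3 and 1814 to 6999 in S4. ANO1 ranged from 1165 to 2030 in S1, 485 to 803 in S2, 349 to 600 in S3 and 289 to 577 in S4. In both genes the ranges of S1 did not overlap those of the other animals. Differences between animals took up 92.5% of the log2 variance of ATP12A over 24 libraries and 87.3% for ANO1, against 4.72% and 4.6% between the 6 groups. For SLC26A4 the shares were 92.9% and 2.26%. This gene passed the filter on low values through S1 alone, so its large animal share was set by that filter and is no support here. For ATP1B1 the groups took up more (56.5%) than the animals (25.9%). Among S2 to S4 alone, the shares of animals and groups were 67.1% and 23.9% for ATP12A and 53.5% and 30.5% for ANO1, so that S1 carried much of the animal share in both genes. For SLC26A4 they were 44.1% and 19.2%, from values of 0 to 8.84 normalized counts. Among S2 to S4, the groups took up 80.7% of the variance of SCNN1G and 82.3% of that of SCNN1B, and the animals 14.3% and 9.83%.

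The 7 lists of other ion and fluid transport genes held 85 genes of the table, of which 73 passed the filter on low values. At recovery the fit with animal as a block called 7 of the 73 lower and 0 higher, against 2.28% lower and 1.14% higher among all genes tested. Without a block, 1 (AQP3) was called lower and 0 higher, against 0.213% and 0.0284%. The median log2 difference of the 73 was -0.13, with 28 above 0, beside 0.008 over all genes. In 6 of the lists, the blocked recovery calls were 1 of 16 tested ENaC proteases, inhibitors and kinases, 1 of 12 CFTR and purinergic regulators, 1 of 10 potassium channel genes, 2 of 7 water channels, carbonic anhydrases and proton transporters, 1 of 10 other anoctamins and volume-regulated channels, and 0 of 7 apical chloride and bicarbonate genes. At 5 days 2 were called lower and 0 higher with the block, against 0.796% and 0.889% of all genes, and at 1 day none. With the block and without the 5-day S1 air library, the recovery counts were 20 lower and 5 higher, against 10.1% and 8.74% of all genes. At 5 days that fit called 5 lower and 0 higher, where 6.33% of all genes were called in either direction.

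AQP3, a basolateral water and glycerol channel abundant in basal cells, had 8183, 7687, 9880 and 9357 normalized counts at recovery in smoke, against 13051, 12058, 16964 and 17026 in air. The groups did not overlap, and the log2 difference was -0.74 ± 0.13 (SE), with an adjusted p of 0.0173 without and 0.00034 with the block. The unblocked call was lost when the recovery air library of S3 or S4, or the recovery smoke library of S2 or S4, was left out (adjusted p up to 0.0738). Its 5-day difference was 0.17, and the change of the smoke effect from 5 days to recovery was -0.91 (adjusted p 0.0358 without and 0.00157 with the block). The basal marker sums given above were lower in the same recovery smoke cultures, and their part in this result was not tested.

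The genes called lower at recovery other than AQP3 passed the test with the block only, and 5 of them are given here. CA12, a membrane carbonic anhydrase, had 5465, 6349, 3395 and 2087 normalized counts in smoke, against 7586, 11964, 5139 and 4943 in air (-0.81, adjusted p 0.00246). It was lower in all 4 animals, and the groups overlapped. KCNN4, a calcium activated potassium channel, had 49.8, 40.3, 36.7 and 32.2 in smoke, against 112, 54.5, 60.6 and 71.6 in air, with no overlap (-0.85, adjusted p 0.0297). ADORA2B, the adenosine receptor that raises cyclic AMP upstream of CFTR, fell by 0.57 (adjusted p 0.0186). LRRC8A, the obligate subunit of volume-regulated anion channels, fell by 0.49 (adjusted p 0.0232), and TMPRSS2, a membrane serine protease, by 0.44 (adjusted p 0.0158). In the blocked fit with 1 animal left out, CA12 was called in 2 of 4 omissions and the other 4 of these genes in 1 each, with adjusted p up to 0.399 for KCNN4.

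The genes called at 5 days with the block in 24 libraries belonged to the ENaC protease list. TMPRSS4, a serine protease that can activate ENaC, had 1271, 2094, 1699 and 1240 normalized counts in smoke, against 1846, 2910, 2490 and 1557 in air. ST14 (matriptase), which acts upstream of channel-activating proteases, had 6215, 8667, 6281 and 7433 in smoke, against 9690, 10940, 7784 and 9168 in air. Both were lower in all 4 animals, by 0.47 for TMPRSS4 (adjusted p 0.586 without and 0.00571 with the block) and 0.40 for ST14 (adjusted p 0.416 without and 0.0119 with the block). In the blocked fit, leaving out S2, S3 or S4 ended both calls (adjusted p up to 0.138). Without the 5-day S1 air library the blocked values were -0.45 for TMPRSS4 (adjusted p 0.00127) and -0.31 for ST14 (adjusted p 0.0015). At recovery the differences were 0.00 and 0.13, and the change of the effect from 5 days to recovery was called for both with the block (0.47 for TMPRSS4, adjusted p 0.0219, and 0.53 for ST14, adjusted p 0.00962). These and the following calls stood against 1.42% of all genes called upward and 2.14% called downward for this change. It was called upward with the block for SLC16A3, a lactate and proton cotransporter (1.24, adjusted p 0.0205). It was called downward with the block for TSC22D3, a glucocorticoid-induced gene (-0.57, adjusted p 0.0205) and for AQP3.

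**Figure D4:**
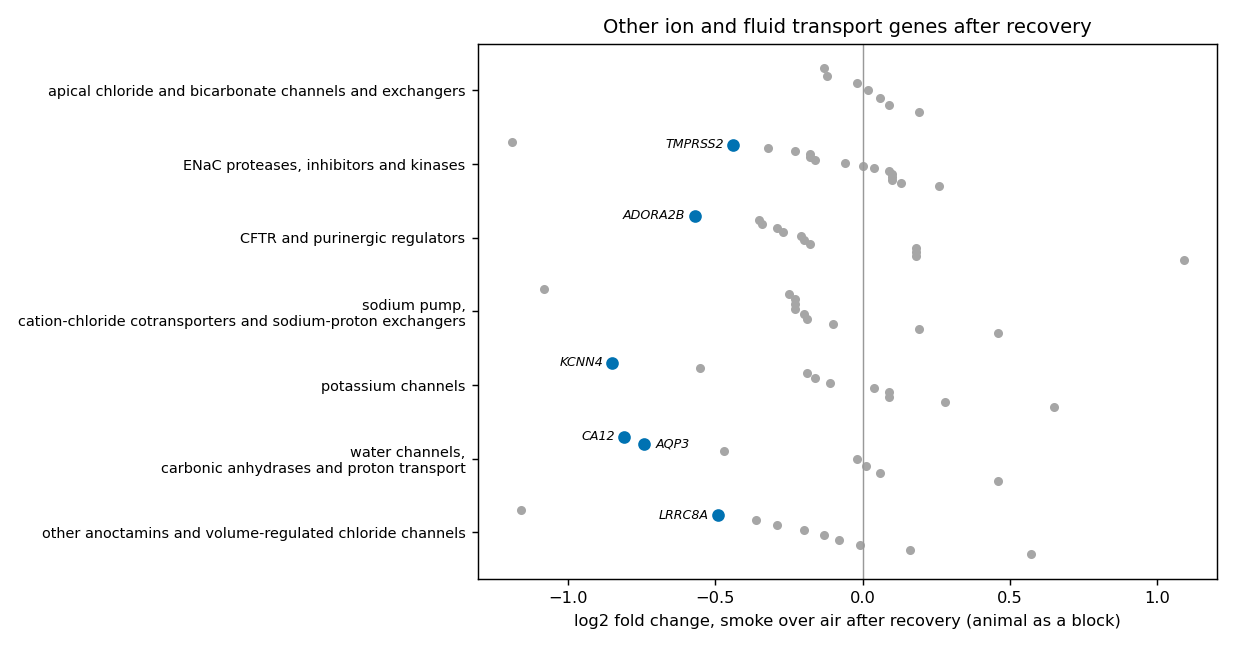
Log2 fold change of smoke over air after recovery, fitted with animal as a block, for the tested genes of 7 lists, with 1 gene not drawn. Each point is a gene, and the 6 drawn genes with an adjusted p under 0.05 are blue and named, all of them left of 0.

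In the list of apical chloride and bicarbonate channels and exchangers, none of the 7 tested was called between smoke and air at any of the 3 times, with or without the block, and their median was 0.02 at recovery. The 2 with the smallest p were SLC26A6, an anion exchanger, at 5 days (-0.50, adjusted p 0.472 without a block) and SLC4A2, a basolateral anion exchanger, at 5 days (-0.17, adjusted p 0.641). SLC26A6 had 577 normalized counts in the 5-day S1 air library against 206 to 249 in the other 5-day air libraries, and its difference became -0.17 in the blocked fit without that library.

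Likeness of pattern was measured as the Pearson correlation of log2 values over the 24 libraries after each animal's mean was subtracted, as a description with no test, since the libraries share groups and animals. SCNN1G was most like MICALL1 (0.878), PHACTR2 (0.871) and SCAPER (0.870), and without the 5-day S1 air library most like INO80 (0.935), LTBP2 (0.916) and TTPAL (0.903). ATP1B1 was most like GLUL (0.922), HS3ST3B1 (0.916) and AMD1 (0.912), and GLUL stayed first at 0.913 over 23 libraries. SCNN1A was most like NSMCE4A (0.864), HOMER2 (0.817) and FAM107B (0.816), SCNN1B like MROH1 (0.912), SCAP (0.900) and HDAC10 (0.899), and ANO1 like ZKSCAN1 (0.830), UBE2O (0.819) and NFIL3 (0.816). ATP12A was most like GALNT1 (0.900), RBM7 (0.892) and NDUFB5 (0.884). LIN52 (0.677) and STEAP4 (0.675) were among the 3 genes most like SLC26A4. Without the 5-day S1 air library all 3 genes were replaced for SCNN1B, ATP12A and SLC26A4. FAM83H (0.933), YPEL5 (0.911) and C15H9orf85 (0.776) then came first for them, in that order. Of the genes named, SCNN1A kept only NSMCE4A (0.865) and ANO1 only UBE2O (0.819).

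The likeness of CFTR to WAC (0.983), ATG2B (0.979) and MID1 (0.974), and of SLC12A2 to TRIM33 (0.971), TMOD3 (0.970) and TMEM209 (0.967), rests on the 5-day S1 air library. Without it the highest correlation was 0.780 for CFTR (WAC) and 0.866 for SLC12A2 (SYT11). Among the members themselves, over the 23 other libraries, SCNN1B and ATP12A ran most opposite (-0.824), CFTR and ATP1B1 next (-0.692), and SCNN1A and ATP1B1 were the most alike pair (0.617).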

How the data were processed

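RNA of 24 cultures was sequenced as poly-A selected libraries, per the labels' protocols. FastQC, Trim Galore, Bowtie2 and RSEM are named in the submitters' processing notes; their versions, the genome build and the tool used for normalization were not given in the sources used here, and no coordinates or sequences are printed. The table the authors deposited is called raw counts but holds a normalized signal for each gene, with decimals, written here as normalized counts. Within 0.1, 76.0 to 82.9% of the low values of a library were multiples of one step, too few for a test for counts. Levels are not per length and are not compared between genes.

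Values were analysed as log2(value + 1); fold changes are on that scale and understate changes of low genes. The 14062 genes that reached 10 in 4 or more libraries, all 9 members among them, were tested with limma 3.58.1 in R 4.3.3 (trend, two-sided, Benjamini-Hochberg adjustment over all genes tested), from 6 group means in 24 libraries, for 9 contrasts. The code was tested on simulated data. The 4 animals, with 1 library each per group, are the replicates. The animals pair the libraries by label, and deviations from group means correlated at 0.303 to 0.804 (60 pairs) within animals. The fit with animal as a block therefore stands beside the unblocked one. Between libraries of different animals and groups the deviations correlated at -0.443 to 0.0149 (180 pairs). Subtracting group means pushes these values toward the negative side, so they are no separate support for the pairing.

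The members, gene lists, marker lists and the 5-day S1 air library as an alternative were chosen with earlier results of these data known. Members are always given; list genes called in a smoke contrast or a change of it in either fit are named, else the 2 with the smallest p. The 3 genes most alike each member are named by correlation. A list gene and a gene alike in pattern that these rules name are not reported here. Alternatives were scaling, pseudocount, filter, the block, the libraries of 1 contrast, and omissions of libraries and animals; combinations of the block with rescaling or with further omissions once the 5-day S1 air library was out were added after the data were seen.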

Additional observations from a re-analysis of the deposited data

Results flagged for a closer look

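The smoke effect on SCNN1G was called different at recovery and at 5 days with animal as a block, but not without it. Most omissions of an animal ended the blocked call in 24 libraries, as given above. With animal as a block, the log2 difference of smoke over air was lower at recovery than at 5 days by a contrast of -1.83 (limma, adjusted p 0.011), and without a block the adjusted p was 0.503. Within one group, 4 of the 54 sets of 4 libraries held a library far from the other 3, measured on the log2 scale as the gap to the nearest library over the whole range and set against Dixon's limit, and chance alone gives about 1 in 20. The SCNN1A value of S3 in 5-day smoke, 8251 normalized counts against 10294 to 10592 in the other animals, had a gap of 0.886. The ATP1B1 value of S2 in 1-day air, 8901 against 10601 to 10677, had a gap of 0.961. SLC26A4 of S1 stood apart at 1 day, with 262 against 1.07 to 3.38 in smoke (gap 0.845) and 274 against 0.926 to 3.13 in air (gap 0.846). This gene passed the filter on low values through S1 alone, so these gaps are no separate finding.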

How the results depend on the processing

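The number of members called was 0 in every contrast without a block except air cultures at recovery against 5 days, with 2. With the replicate block it was 1 for smoke against air at recovery, 1 for the change of the smoke effect to recovery, 1 and 2 for 5 days against 1 day in smoke and in air, and 4 for recovery against 5 days in air, and rescaling to equal totals or equal upper quartiles with the block gave these same counts. With the block and without the 5-day S1 air library it was 2, 1, 4, 5 and 4 in that order, and 2 for smoke cultures at recovery against 5 days. From the libraries of each contrast alone, the air contrast of recovery against 5 days gave 0 with and without the block, and the block gave 1 for smoke against air at 1 day (SCNN1A), 5 at recovery (SCNN1A, SCNN1G, ANO1, SLC12A2 and ATP12A), and 5 and 1 for smoke cultures at 5 days against 1 day and recovery against 5 days; the cause was not tested. With no filter, air at recovery against 5 days gave 1 (ATP1B1). Omissions of 1 library or animal gave 0 to 3 for smoke against air at recovery, 0 to 2 for its change, 0 to 4 and 0 to 3 for the smoke intervals, and 0 to 5 and 0 to 4 for the air intervals. The share of all genes called was not computed for the rescaled fits, the fits of 1 contrast's libraries, the fit without a filter or the omissions. Their member counts therefore have no background beside them and are no result about the members. Of 3523 values of members under alternatives, 19 lost and 240 gained a call. The change of the smoke effect on SLC12A2 to recovery, -0.38, ran from -0.72 to 0.49 under omissions, and was called with the opposite sign at 0.41 (without 5-day smoke of S2) and 0.45 (without recovery air of S3), both with the block and without the 5-day S1 air library. Another 402 values, all uncalled, had the other sign. With scaling to equal totals the median of all genes lay at 0.163 for the change of the smoke effect to 5 days, against 0.008 as deposited, and every member difference of 0.1 or more kept its sign. CFTR, SCNN1G and SLC26A4 have the lowest values, where 1 read moves the log2 value most.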

Other observations

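Summed ciliated cell markers were higher in smoke than in air at recovery in all 4 animals, with no test. By group median, FOXJ1, PIFO, TPPP3 and SNTN were higher in smoke. DNAH5 (2436 in smoke, 2696 in air) and DNAI1 (626 and 629) were not. The 6 markers in the table summed to 10462, 8071, 22045 and 15358 normalized counts in smoke cultures of S1 to S4, against 7040, 7111, 15698 and 12891 in air cultures. Secretory markers were split, with 69624, 3091, 5205 and 12179 in smoke, against 54560, 2339, 6556 and 13101 in air. Summed goblet markers were higher in smoke in 3 of 4 animals. They were 27825, 18849, 16705 and 33589 in smoke, against 26515, 12815, 18035 and 27385 in air. AGR2 was the largest part by group median (18133 in smoke, 15226 in air). The medians of TFF3 and FOXA3 were also higher in smoke. Those of MUC5B (1634 against 4011), SPDEF (64.4 against 74.9) and CREB3L1 (871 against 916) were lower. The ionocyte list was carried by ATP6V1B1 (585 to 771 in smoke and 554 to 767 in air at recovery) and is no measure of ionocytes, because FOXI1, ASCL3 and BSND were below 10 in every library.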
